A study of Arabidopsis thaliana with 12 samples.

Results

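The genes described here are 9 signalling genes that act between the pattern receptors of the plasma membrane and the early immune response of Arabidopsis thaliana, and they were taken by their AGI identifiers, 9 rows of the 33610 genes in the deposited count table. They are BIK1 and PBL1, which encode receptor-like cytoplasmic kinases, RBOHD and RBOHF, which encode NADPH oxidases, and CPK4, CPK5, CPK6, CPK11 and CPK28, which encode calcium-dependent protein kinases. All 9 were among the 17588 genes that passed the filter on low counts. The study asked how gene expression differs between plants raised with and without a microbiota. Whole rosettes of 21-day-old Col-0 plants were harvested from FlowPots, a peat-based gnotobiotic system. Holoxenic (HO) plants had been inoculated with a slurry of living soil taken in Michigan under Miscanthus (MSU) or from an undisturbed grassland in Iowa (Malaka, called Laurel in the sample labels). Axenic (AX) plants had been mock-inoculated with the autoclaved slurry of the same soil. HO and AX plants thus shared the genotype, the peat, the nutrient solution and the soil from which the slurry was made. Other changes that autoclaving made to the slurry cannot be told apart from the lack of living microbes. Each of the 4 groups, AX-MSU, AX-Malaka, HO-MSU and HO-Malaka, comprised 3 libraries, and a library was a pool of 8 rosettes from 4 FlowPots that stood in 1 microbox. The pool is therefore the replicate, a microbox and its pool cannot be told apart, and p-values measure the spread between pools. No elicitor or pathogen had been applied, so the values are basal transcript levels.

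BIK1 and its closest homologue PBL1 bind receptor complexes such as that of FLS2, the receptor of bacterial flagellin, and are phosphorylated when a ligand is perceived. BIK1 then phosphorylates RBOHD, the oxidase that makes most of the extracellular reactive oxygen burst in leaves, and RBOHF is the related oxidase best known for its part in abscisic acid responses, stomata and cell death. Calcium enters the cell at the same time and activates calcium-dependent kinases: CPK5, with CPK4, CPK6 and CPK11, promotes the oxidative burst and early defence gene expression, and CPK5 phosphorylates RBOHD. CPK28 acts in the opposite direction, because it phosphorylates BIK1 and the E3 ligases PUB25 and PUB26 and so promotes the turnover of BIK1 protein. These activities are set largely by phosphorylation and protein stability, which RNA-seq does not measure.

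Of the genes, 4 were higher in HO plants, and the 250 bases upstream of the annotated transcript start of each are shown because these genes moved in 1 direction. They were read from the RefSeq genome of Arabidopsis (TAIR10.1, which has the nuclear sequence of TAIR10) in the direction of transcription, with a W-box core, the binding motif of WRKY transcription factors, in capitals. The windows are chr2:16531277-16531526 (plus strand) for BIK1, chr3:20557394-20557643 (plus strand) for PBL1, chr5:19396791-19397040 (plus strand) for RBOHD and chr5:26459655-26459904 (minus strand) for CPK28.
BIK1: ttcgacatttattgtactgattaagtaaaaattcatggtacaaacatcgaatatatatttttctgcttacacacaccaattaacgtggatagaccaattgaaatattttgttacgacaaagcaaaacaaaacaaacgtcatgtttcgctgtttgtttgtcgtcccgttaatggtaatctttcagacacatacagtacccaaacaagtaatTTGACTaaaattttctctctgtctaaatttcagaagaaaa
PBL1: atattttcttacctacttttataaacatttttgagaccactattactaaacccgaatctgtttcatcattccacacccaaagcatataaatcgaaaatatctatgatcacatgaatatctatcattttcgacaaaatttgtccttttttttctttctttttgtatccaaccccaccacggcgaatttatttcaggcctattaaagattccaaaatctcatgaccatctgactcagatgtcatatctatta
RBOHD: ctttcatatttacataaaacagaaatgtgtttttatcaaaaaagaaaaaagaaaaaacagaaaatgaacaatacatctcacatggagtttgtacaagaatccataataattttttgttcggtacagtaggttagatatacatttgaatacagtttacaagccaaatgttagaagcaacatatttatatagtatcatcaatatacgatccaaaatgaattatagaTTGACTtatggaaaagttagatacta
CPK28: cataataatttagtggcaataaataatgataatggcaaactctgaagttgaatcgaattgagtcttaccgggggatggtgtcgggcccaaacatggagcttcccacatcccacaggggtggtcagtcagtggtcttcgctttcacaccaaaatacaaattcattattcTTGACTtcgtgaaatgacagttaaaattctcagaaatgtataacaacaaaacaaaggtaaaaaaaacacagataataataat
The core was searched as TTGACC or TTGACT on both strands and no other motif was searched. BIK1 held 1 core, which began 40 bases before the transcript start, RBOHD 1 at 26 bases and CPK28 1 at 82 bases, and PBL1 held none. Of the genes that were not called, CPK4 and CPK5 held 1 each, and RBOHF, CPK6 and CPK11 held none. The same letters occurred in 28.4% of the 27443 upstream windows of protein-coding nuclear genes, and no binding was measured here.

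The libraries held 10211008 to 22710086 counts, of which organelle genes took 48.5 to 57.7% and nuclear ribosomal RNA genes 9.88 to 21.8%. The organelle share was higher in every HO-Malaka library (at least 52.99%) than in every AX-Malaka library (at most 52.2%), whereas with MSU the shares overlapped. With organelle and ribosomal RNA genes removed before the fit, the number of the 9 genes called was the same, 4 across both soils, 2 within Malaka and 3 within MSU. Levels are given as CPM, the count of a gene relative to its library size after TMM correction for composition, and, where genes are compared with each other, as RPKM, which divides CPM by the kilobases of annotated exon. A gene was called changed at an FDR under 0.05 in edgeR, adjusted over all 17588 genes tested, and a differentially expressed gene (DEG) also had a |log2FC| of at least 1. Summed leaf mesophyll markers (RBCS1A, RBCS2B, RBCS3B, CA1 and LHCB1.3) stood at 12455 to 13654 CPM in AX and 11543 to 12931 CPM in HO libraries, and CA1 fell by 0.27 (log2, FDR = 0.0136). Of 5 root markers, IRT1, CASP1, COBL9 and EXPA7 had at most 4 counts in any library, and PYK10, a beta-glucosidase, rose by 0.24 (FDR = 0.0491). Guard cell markers summed to 22.6 to 27.4 CPM in AX and 19.4 to 25.7 CPM in HO libraries, and none of the 4 was called. Flower and pollen markers did not exceed 1.10 CPM in sum. The part of these shifts in the results below was not tested, and in a pool of whole rosettes fewer cells of a type and less RNA per cell cannot be told apart.

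Across both soils, 4 of the 9 genes changed between HO and AX plants, BIK1, PBL1, RBOHD and CPK28, and all 4 were higher in HO plants. Of all genes tested, 10.2% were called in this comparison and 5.01% were called higher. The median log2FC of the 9 genes was 0.06, against 0.005 over all genes tested, because the other 5 genes, RBOHF, CPK4, CPK5, CPK6 and CPK11, lay between −0.15 and 0.06. Within Malaka 2 of the 9 were called (background 4.38%), BIK1 and RBOHD, and within MSU 3 (background 6.58%), BIK1, RBOHD and CPK28. None was called in the soil by treatment interaction, in which 0.279% of all genes were, and the smallest unadjusted p was 0.0884, at RBOHF. DESeq2 called none of the 9 there either, so no gene was shown to respond differently to the 2 soils. Nor was any called between the soils, in AX plants (background 0.648%, smallest unadjusted p 0.0104, at RBOHD) or in HO plants (background 0.29%, smallest unadjusted p 0.0263, at RBOHD). With library sizes taken as total counts, without correction for composition, the median log2FC of all genes moved to −0.10, and only BIK1 and RBOHD stayed called across both soils, BIK1 alone in Malaka and none in MSU.

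**Figure D1:**
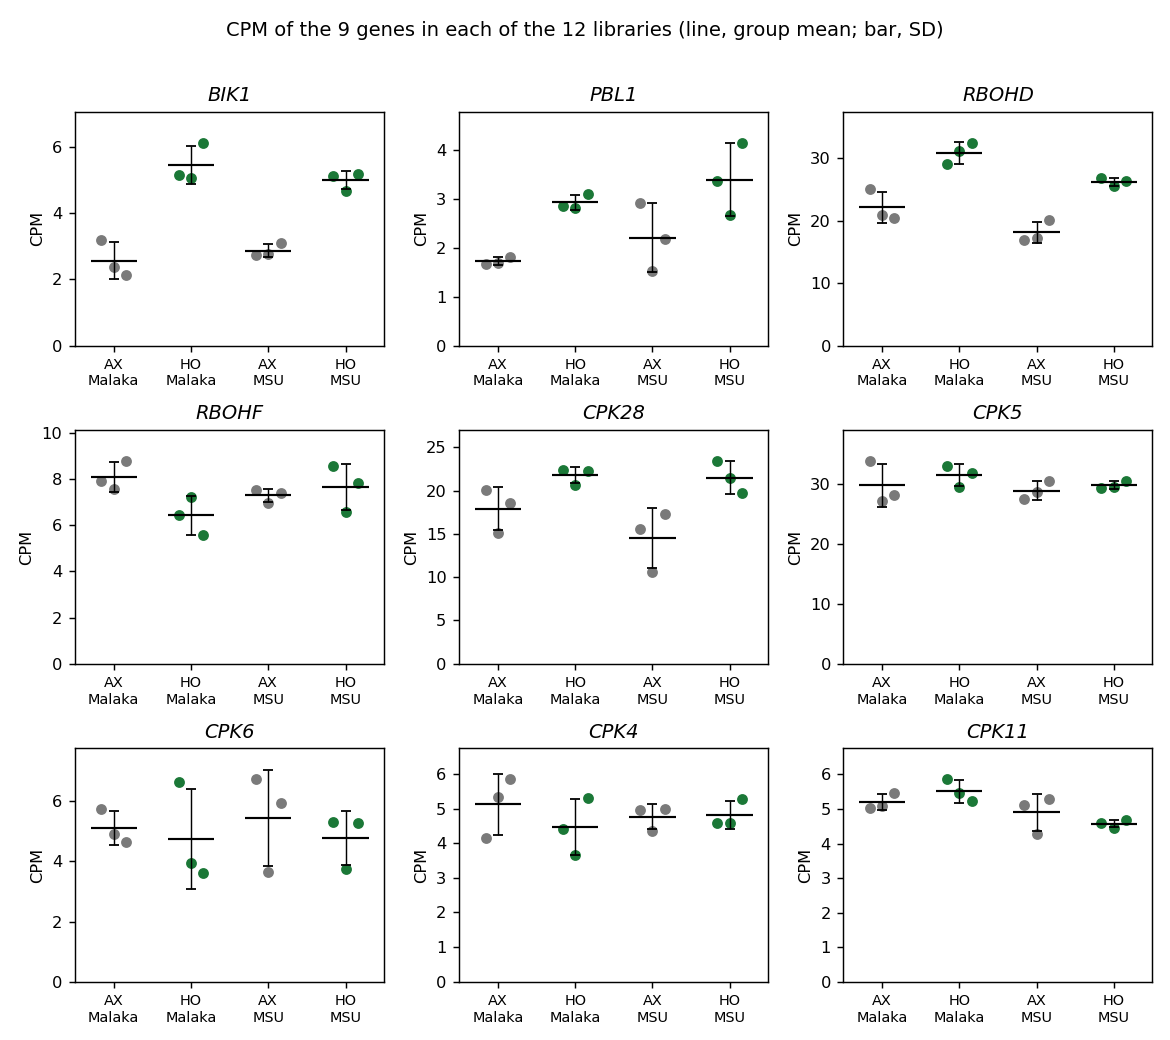
CPM of each gene in the 12 libraries, with AX libraries in grey and HO libraries in green, the group mean as a line and the SD as a bar (n = 3 pools per group). The HO libraries of BIK1 and RBOHD all lie above the AX libraries, whereas those of CPK4, CPK5, CPK6 and CPK11 overlap in each soil.

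BIK1 (AT2G39660, chr2:16531527-16533986, plus strand, 6 exons) was the gene with the largest difference of the 9. It stood at 3.19, 2.39 and 2.12 CPM in the AX-Malaka libraries and at 5.18, 5.08 and 6.14 CPM in the HO-Malaka libraries. With MSU it stood at 2.74, 2.76 and 3.10 CPM in AX and at 5.13, 4.68 and 5.20 CPM in HO plants. Every HO library was above every AX library in both soils, a separation found in the same direction at 2.51% of all genes. BIK1 rose by a log2FC of 0.93 ± 0.15 (SE), or 1.91-fold, across both soils (FDR = 5.01e-05). The increase was 1.08 ± 0.21 within Malaka (FDR = 0.00166), where BIK1 was the only DEG of the 9 (1.25% of all genes were DEGs in this direction), and 0.80 ± 0.20 within MSU (FDR = 0.0131). The interaction was −0.28 (95% interval −0.89 to 0.32), which leaves room for differences between the soils in either direction. Counts were low, 21 to 105 a library, and the MSU call was lost without AX-MSU replicate 2 (FDR = 0.0613), without HO-MSU replicate 3 (FDR = 0.0522) and with total counts (FDR = 0.145).

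PBL1 (AT3G55450, chr3:20557644-20560235, plus strand, 6 exon blocks over 2 transcripts) is the member closest to BIK1 in sequence, with 78.9% of aligned coding bases identical. It was measured at 1.68, 1.70 and 1.82 CPM in AX-Malaka and at 2.85, 2.82 and 3.11 CPM in HO-Malaka libraries, which did not overlap (10.1% of all genes were separated in this way within Malaka). With MSU it was measured at 2.92, 1.52 and 2.18 CPM in AX and at 3.36, 2.68 and 4.15 CPM in HO plants, and here the groups overlapped through AX-MSU replicate 1. Across both soils PBL1 rose by 0.67 ± 0.19 (FDR = 0.0206), and it was called in neither soil alone (0.76, FDR = 0.147 within Malaka and 0.59, FDR = 0.205 within MSU). Its counts, 18 to 60 a library, were the lowest of the 9 genes, and the call was lost without AX-MSU replicate 2 (FDR = 0.0666), without HO-MSU replicate 3 (FDR = 0.0662) and with total counts (FDR = 0.0956).

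RBOHD (AT5G47910, chr5:19397041-19402061, plus strand, 8 exons) had the smallest p-value of the 9 genes across both soils and within MSU. In AX-MSU libraries it stood at 17.0, 17.3 and 20.2 CPM and in HO-MSU libraries at 26.9, 25.6 and 26.3 CPM. In AX-Malaka libraries it stood at 25.1, 21.0 and 20.5 CPM and in HO-Malaka libraries at 29.1, 31.2 and 32.5 CPM. No group overlapped another, in the order AX-MSU, AX-Malaka, HO-MSU and HO-Malaka. Across both soils RBOHD rose by 0.51 ± 0.07, or 1.42-fold (FDR = 2.10e-05), with 0.48 ± 0.10 within Malaka (FDR = 0.00493) and 0.53 ± 0.10 within MSU (FDR = 0.00101). The 2 increases differed by 0.06 (95% interval −0.24 to 0.36, FDR of the interaction = 0.958). The lower level with MSU than with Malaka was −0.29 in AX plants (FDR = 0.307) and −0.24 in HO plants (FDR = 0.463) and was not called, although the libraries did not overlap (7.52% and 7.03% of all genes were separated in this direction). Without AX-Malaka replicate 2 the Malaka call was lost (FDR = 0.0530), and with total counts both within-soil calls were (FDR = 0.231 in Malaka and 0.207 in MSU).

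RBOHF (AT1G64060, chr1:23769774-23776984, plus strand, 14 exons) was not called in any comparison. It was measured at 7.91, 7.55 and 8.79 CPM in AX-Malaka and at 6.45, 7.24 and 5.58 CPM in HO-Malaka libraries, so that all HO libraries lay below the AX libraries, as at 9.11% of all genes. Its log2FC there was −0.33 ± 0.16 (FDR = 0.299). With MSU the 3 HO libraries, at 8.55, 6.56 and 7.84 CPM, enclosed the AX libraries, at 7.51, 6.97 and 7.40 CPM. Across both soils the log2FC was −0.13 (95% interval −0.36 to 0.11, FDR = 0.579), an interval that does not reach the estimate for RBOHD.

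CPK28 (AT5G66210, chr5:26456142-26459654, minus strand, 10 exon blocks over 6 transcripts) was the only 1 of the 5 calcium-dependent kinases that was called. It stood at 15.6, 10.6 and 17.3 CPM in AX-MSU and at 23.5, 21.4 and 19.7 CPM in HO-MSU libraries. With Malaka it stood at 20.05, 15.2 and 18.6 CPM in AX and at 22.4, 20.7 and 22.3 CPM in HO plants. The groups did not overlap within either soil (10.1% of all genes were separated upwards within Malaka and 12.4% within MSU), but AX-Malaka replicate 1 exceeded HO-MSU replicate 3. CPK28 rose by 0.43 ± 0.10, or 1.35-fold, across both soils (FDR = 0.00439) and by 0.57 ± 0.13 within MSU (FDR = 0.00697), whereas the 0.29 ± 0.14 within Malaka did not pass (FDR = 0.275). The difference between the soils was itself 0.28 (95% interval −0.11 to 0.67, FDR = 0.767). AX-MSU replicate 2, the lowest library of all, weighed on the MSU difference, which was 0.39 (FDR = 0.101) without it, and the call was also lost without HO-MSU replicate 1 (FDR = 0.0506). With total counts it was lost both within MSU (FDR = 0.206) and across both soils (FDR = 0.130).

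CPK5 (AT4G35310, chr4:16801605-16805005, plus strand, 8 exon blocks over 2 transcripts), a kinase that phosphorylates RBOHD, had the highest level of the 9 genes and was not called. It stood at 33.9, 27.2 and 28.3 CPM in AX-Malaka and at 33.1, 29.5 and 31.9 CPM in HO-Malaka libraries. With MSU it stood at 27.6, 28.7 and 30.6 CPM in AX and at 29.4, 29.6 and 30.6 CPM in HO plants. Its log2FC across both soils was 0.06 (95% interval −0.08 to 0.21, FDR = 0.657), and with total counts it was −0.05. Its interval is thus narrower than the differences measured at BIK1, RBOHD and CPK28.

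CPK6 (AT2G17290, chr2:7516330-7519662, plus strand, 8 exon blocks over 2 transcripts), which has 86.5% of aligned coding bases identical to CPK5, ranged from 3.60 to 6.63 CPM in HO-Malaka and from 3.66 to 6.74 CPM in AX-MSU libraries, from 4.65 to 5.75 CPM in AX-Malaka and from 3.75 to 5.32 CPM in HO-MSU libraries. The HO and AX ranges overlapped in both soils. Its log2FC across both soils was −0.15 (95% interval −0.49 to 0.19, FDR = 0.662), and the interval includes a decrease, but not an increase, of the size measured at CPK28.

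CPK4 (AT4G09570, chr4:6049441-6052380, plus strand, 7 exons) and CPK11 (AT1G35670, chr1:13205345-13208289, plus strand, 7 exons), the pair with 88.1% of aligned coding bases identical, were not called either. CPK4 ranged from 4.15 to 5.86 CPM over the 6 AX and from 3.67 to 5.29 CPM over the 6 HO libraries, with a log2FC of −0.08 (95% interval −0.36 to 0.19, FDR = 0.779). CPK11 ranged from 4.28 to 5.46 CPM in AX and from 4.46 to 5.87 CPM in HO libraries, with a log2FC of −0.01 (95% interval −0.26 to 0.24, FDR = 0.984). For each gene the AX and HO spans overlapped. Because the reads were 50 bases long, the places where this pair cannot be separated are shown: 2 coding stretches of 53 bases are identical in both genes, at chr4:6049758-6049810 and chr4:6049956-6050008 in CPK4 and at chr1:13205657-13205709 and chr1:13205855-13205907 in CPK11, all on the plus strand.
First stretch shared by CPK4 and CPK11: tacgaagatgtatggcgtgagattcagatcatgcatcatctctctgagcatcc
Second stretch shared by CPK4 and CPK11: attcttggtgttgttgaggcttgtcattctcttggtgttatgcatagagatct
They contain 8 of the 1478 windows of 50 bases in CPK4 (0.541%) and 8 of the 1487 in CPK11 (0.538%), and no window of the other 7 genes recurred elsewhere in the genome. CPK4 also shares 29 exonic bases with a gene on the opposite strand, AT4G09580, and the other 8 genes share none.

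**Figure D2:**
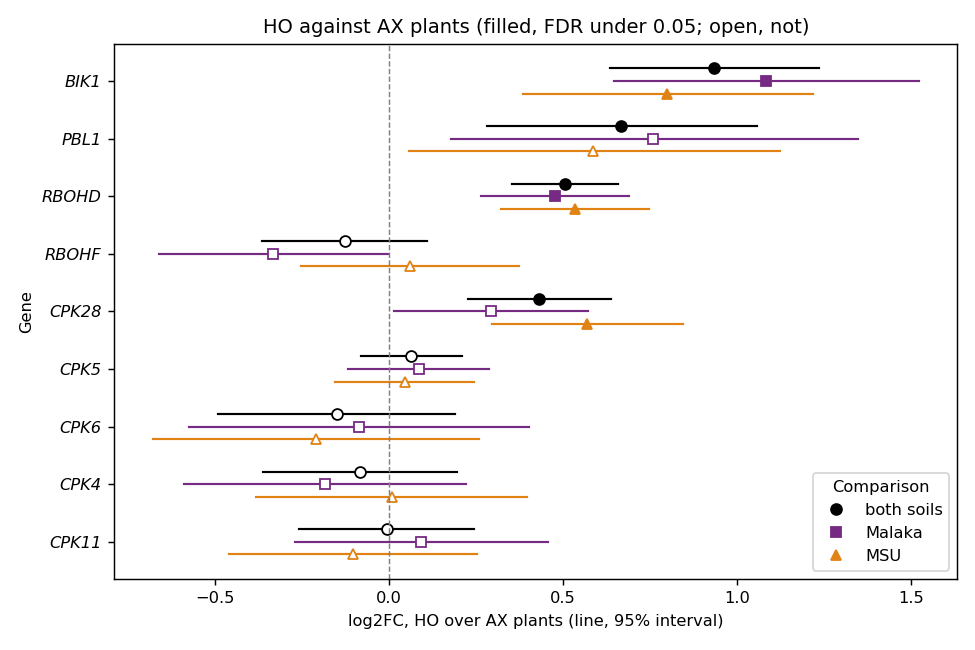
The log2FC of HO over AX plants for each gene across both soils, within Malaka and within MSU, as a point with its 95% interval, filled where the FDR was under 0.05. BIK1 and RBOHD were called in all 3 comparisons, PBL1 across both soils only, and CPK28 across both soils and within MSU, whereas the intervals of CPK4, CPK5, CPK6 and CPK11 include 0 throughout.

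Per kilobase of exon the 9 transcripts fell into 2 ranges of level. CPK5 had the highest mean over the 12 libraries, 11.3 ± 0.795 RPKM (SD), and its libraries did not overlap those of the next gene. CPK28, at 7.48 ± 1.47 RPKM, and RBOHD, at 6.77 ± 1.44 RPKM, overlapped each other and lay above all the rest. CPK11 followed at 2.76, CPK4 at 2.63, BIK1 at 2.00, CPK6 at 1.89, RBOHF at 1.84 and PBL1 at 1.26 RPKM, and the libraries of each of these overlapped those of its neighbour in the order. BIK1 moved within this order, from 1.37 ± 0.206 RPKM in AX plants, below CPK4, CPK11, CPK6 and RBOHF in mean, to 2.63 ± 0.243 RPKM in HO plants, near CPK4 (2.55) and CPK11 (2.76). The kinase that promotes BIK1 turnover, CPK28, was thus the more abundant transcript in both kinds of plant, at 6.41 RPKM in AX and 8.56 RPKM in HO plants.

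**Figure D3:**
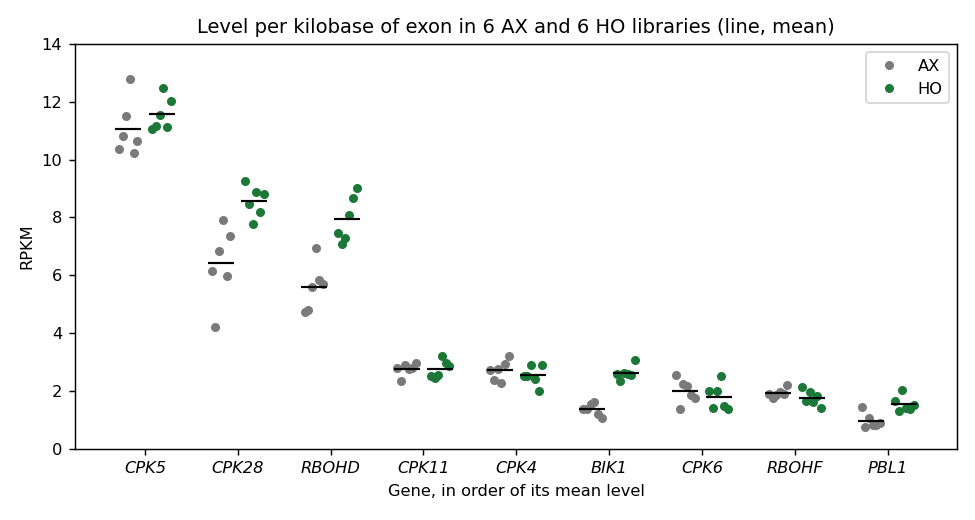
RPKM (CPM per kilobase of annotated exon) of the 9 genes in the 6 AX libraries (grey) and the 6 HO libraries (green), with the mean as a line and genes in the order of their mean. CPK5, CPK28 and RBOHD occupy the upper range at 4.20 to 12.8 RPKM, and the other 6 genes lie between 0.745 and 3.22 RPKM.

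Ratios between related genes were computed in each library, since a ratio of counts within 1 library does not depend on how libraries are scaled. The 5 pairs were chosen after the values had been seen, so the ratios are given as a description, with no test. Only the change of a ratio is compared, because gene length does not cancel within it. The ratio of RBOHD to RBOHF had a median of 2.60 in AX libraries, with a range of 2.26 to 3.17, and of 4.10 in HO libraries, with a range of 3.14 to 5.84. On the log2 scale it was higher by 0.65 in HO plants, by 0.82 within Malaka and by 0.48 within MSU, and 0.55 to 0.72 with any 1 library left out. The libraries of HO and AX plants did not overlap within either soil, as was already so for RBOHD alone. The share of gene pairs separated in this way was not computed.

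The ratio of CPK28 to CPK5, the kinases with opposite effects on this pathway, ranged from 0.370 to 0.657 in AX and from 0.643 to 0.798 in HO libraries, higher by 0.38 on the log2 scale. The difference was 0.55 within MSU and 0.21 within Malaka, and over both soils 0.27 to 0.43 with any 1 library left out. Within MSU it was 0.34 without AX-MSU replicate 2, the lowest library. The ratio of BIK1 to PBL1 differed by 0.25, that of CPK5 to CPK6 by 0.22 and that of CPK4 to CPK11 by −0.09, and for these 3 pairs the HO and AX libraries overlapped.

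**Figure D4:**
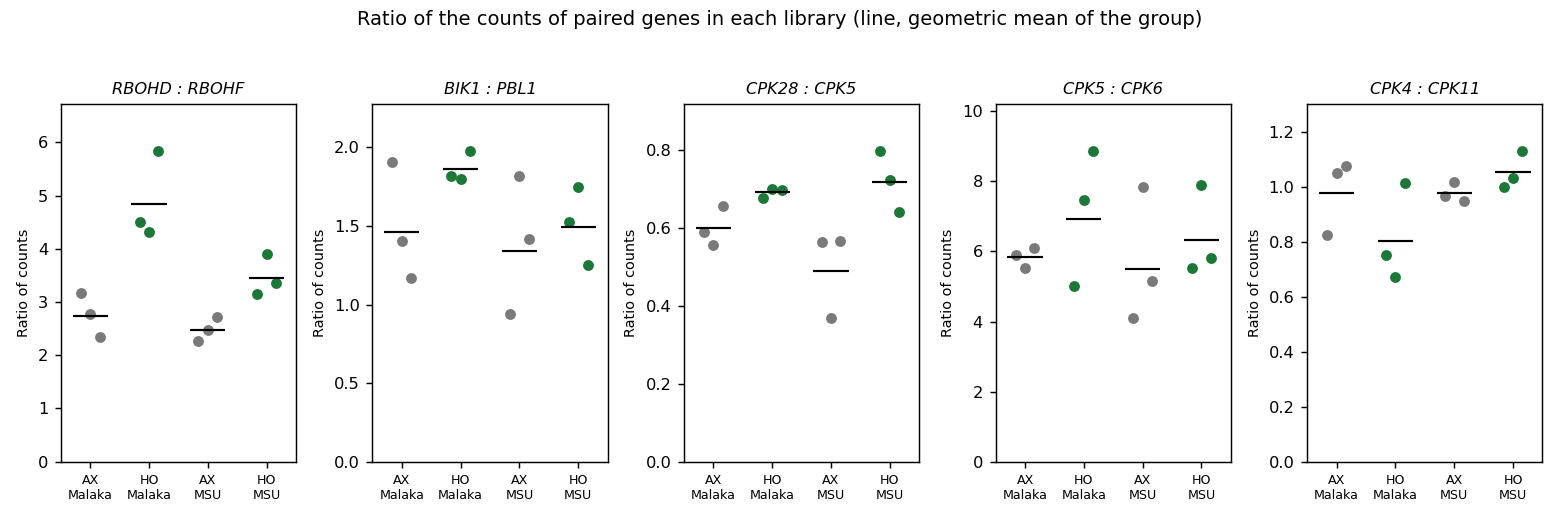
Ratio of the counts of 5 pairs of genes in each library, by group, with the geometric mean as a line. The HO libraries of RBOHD to RBOHF lie above the AX libraries within each soil, as for RBOHD alone, at 3.14 to 5.84 against 2.26 to 3.17 over both. Those of BIK1 to PBL1, CPK5 to CPK6 and CPK4 to CPK11 overlap.

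Over the 12 libraries the log2 CPM of BIK1 and RBOHD had a Pearson r of 0.859, and after the group means were removed it was 0.877. RBOHD and CPK28 had an r of 0.831, and 0.511 within groups, and BIK1 and PBL1 0.783, and 0.105 within groups. Within groups, pairs with a gene that was not called ran from −0.27 (RBOHD and CPK4) to 0.772 (BIK1 and CPK5). CPK6 and CPK11 had 0.763 within groups, and CPK11 and CPK28 0.691. RBOHF had an r of −0.51 with BIK1, and −0.25 within groups, and of −0.39 with RBOHD, and −0.05 within groups. These are descriptions over libraries that share the contrast between HO and AX plants and the library size factors. The 5 genes of the table with the highest r with RBOHD were PYL4, an abscisic acid receptor (0.952), PUB23, a U-box E3 ligase (0.951), AT5G35735 (0.946), AT2G30020, a protein phosphatase known as AP2C1 (0.928), and TMT1, a sugar transporter of the tonoplast (0.925).

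Of 23 other RLCK VII kinases, the subfamily of BIK1, 20 were tested and 3 were higher in HO plants across both soils (background 5.01%) and none was lower, with a median log2FC of 0.14. The largest difference was that of AT3G09830, a protein kinase at 1.08 RPKM, which rose by 0.97 ± 0.20 (FDR = 0.00111) and by 1.25 within MSU (FDR = 0.00336). APK2A (AT1G14370, also PBL2), a kinase that serves as a decoy in the recognition of a Xanthomonas effector, rose by 0.54 (FDR = 0.0244), with 194 of its 1828 exonic bases opposite other genes. RIPK, which phosphorylates the immune regulator RIN4, rose by 0.38 (FDR = 0.0285). The calls of APK2A and RIPK were lost without any 1 of the same 6 libraries (AX-Malaka 2, HO-Malaka 3, AX-MSU 2 and 3, HO-MSU 1 and 2; FDR = 0.0529 to 0.0906) and with total counts (FDR = 0.173 and 0.302). AT5G01020, the most abundant relative that did not pass, stood at 10.7 RPKM and differed by 0.07 (FDR = 0.691). Only AT3G09830 was called within a soil.

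Other RBOH genes were at or near the limit of detection. Of the 8 other RBOH genes, 7 had no more than 7 counts in any library and were not tested. AT1G19230, the only other one tested, stood at 0.18 RPKM and differed by 0.50 (FDR = 0.555), with 133 exonic bases opposite another gene.

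Of 29 other calcium-dependent protein kinases, 19 were tested, and 2 were higher (background 5.01%) and none lower in HO plants, with a median of 0.14. CPK1 rose by 0.25 ± 0.08 (FDR = 0.0449) and CPK10 by 0.36 ± 0.11 (FDR = 0.0353), but 1276 exonic bases of CPK10 lie opposite other genes, AT1G05453 and AT1G18880. Neither call was firm. That of CPK1 was lost in 8 of the 12 fits that left out a library, all but those without AX-Malaka 3, HO-Malaka 1, HO-Malaka 3 or HO-MSU 2 (FDR up to 0.156), and that of CPK10 without AX-Malaka 1, HO-Malaka 1, HO-Malaka 3, AX-MSU 2, AX-MSU 3 or HO-MSU 3 (FDR up to 0.105). Both were lost with total counts (FDR = 0.517 and 0.298). Within MSU CPK1 was called too (0.36, FDR = 0.0440). That call was lost in 7 of the 12 fits that left out a library (FDR up to 0.307) and with total counts (FDR = 0.560). CPK31 was called within MSU (1.03, FDR = 0.0340, interaction FDR = 0.634). Its call was lost without AX-MSU 2 or 3 or any HO-MSU library (FDR up to 0.219) and with total counts (FDR = 0.106). Of the windows of 50 bases in CPK31, 2.17% recur elsewhere. CPK3, the most abundant of the family that did not pass, stood at 12.0 RPKM and differed by 0.17 (FDR = 0.142).

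Of 16 genes listed as direct or indirect regulators of BIK1 or RBOHD, all tested, 2 were higher in HO plants (background 5.01%). None was lower, and the median was 0.15. ATL31, a RING E3 ligase, had 0.44 to 1.10 CPM in AX and 2.07 to 3.32 CPM in HO libraries and rose by 1.86 ± 0.25 (FDR = 4.69e-06), by 2.26 within Malaka (FDR = 0.000166) and by 1.54 within MSU (FDR = 0.00246). CRK2, a receptor-like kinase that phosphorylates RBOHD, rose by 0.36 (FDR = 0.0251), a call lost without AX-Malaka 2, HO-Malaka 3, AX-MSU 2, AX-MSU 3 or HO-MSU 1 (FDR up to 0.0940) and with total counts (FDR = 0.280). XLG2, an extra-large G protein that stabilises BIK1, rose within MSU (0.61, FDR = 0.00838; interaction 0.54, FDR = 0.449), and was not called without HO-MSU replicate 1 (FDR = 0.0947) or with total counts (FDR = 0.179). The E3 ligases that ubiquitinate BIK1 were not called: PUB25 differed by 0.17 (FDR = 0.445), PUB26 by −0.08 (FDR = 0.716), RHA3A by 0.04 (FDR = 0.918) and RHA3B by 0.50 (FDR = 0.294).

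Of 5 calcium channel genes, 4 were tested and 2 were higher in HO plants (background 5.01%), with a median of 0.23. AT1G11960, listed here as the channel OSCA1.3, is annotated by RefSeq as an ERD family protein. It stood at 3.83, 4.78 and 4.65 CPM in AX-Malaka and at 4.94, 9.97 and 7.76 CPM in HO-Malaka libraries. With MSU it stood at 3.64, 2.49 and 3.88 CPM in AX and at 14.3, 13.8 and 13.3 CPM in HO plants. It rose by 1.43 ± 0.19 across both soils (FDR = 4.69e-06) and by 2.05 ± 0.20 within MSU (FDR = 2.88e-08). The 0.74 ± 0.21 within Malaka (FDR = 0.0356) was lost without HO-Malaka 2 or 3 or any AX-Malaka library (FDR up to 0.169) and with total counts (FDR = 0.111). CNGC20, a cyclic nucleotide-gated channel, rose by 0.50 ± 0.13 (FDR = 0.0136, and 0.161 with total counts). CNGC2 and CNGC4, which form a channel that BIK1 phosphorylates, differed by −0.05 (FDR = 0.799) and −0.07 (FDR = 0.763).

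Genes known to respond to this signalling were described alongside its components. The list holds 11 genes, early response genes of pattern-triggered immunity together with targets of CPKs. Of these, 9 were tested, 6 were higher across both soils (background 5.01%) and none lower (background 5.16%), with a median of 0.67. The list was drawn up with earlier results of these data known, so its count is not independent evidence of a direction. FRK1, a receptor-like kinase and marker of pattern-triggered immunity, is not taken here as a specific reporter of CPKs. It had 3 counts in all 6 AX libraries together and 35 to 92 counts in each HO library (FDR = 9.80e-12). WRKY48 rose by 2.39 ± 0.23 (FDR = 3.34e-08), and its libraries stood at 0.477 to 0.967 CPM in AX and 2.85 to 5.07 CPM in HO plants. CYP81F2, an enzyme of indole glucosinolate synthesis, rose by 1.89 ± 0.23 (FDR = 1.30e-06), and WRKY33, a regulator of camalexin synthesis, by 0.67 ± 0.14 (FDR = 0.00215). Within Malaka WRKY33 rose by 1.05 (FDR = 0.000215), and within MSU it differed by 0.30 with overlapping groups (FDR = 0.364; interaction FDR = 0.278). ACS6, an enzyme of ethylene synthesis, rose by 0.47 (FDR = 0.0301) and WRKY8 by 1.48 (FDR = 0.0467). The call of ACS6 was lost in 8 of the 12 fits that left out a library, all but those without AX-Malaka 1, HO-Malaka 1, HO-Malaka 2 or HO-MSU 1 (FDR up to 0.126). That of WRKY8 was lost in 9, all but those without AX-Malaka 1, HO-Malaka 1 or AX-MSU 3 (FDR up to 0.129), and both were lost with total counts (FDR = 0.212 and 0.0802). PHI1 fell by 0.65 within Malaka (FDR = 0.0345), a call lost without AX-Malaka 1, AX-Malaka 3, HO-Malaka 2 or HO-Malaka 3 (FDR up to 0.223) and with total counts (FDR = 0.0746). It was also lower with MSU than with Malaka, with a log2FC of −1.77 in AX plants (FDR = 2.62e-06) and −0.92 in HO plants (FDR = 0.0317, and up to 0.159 without any 1 of HO-Malaka 1, HO-Malaka 3 or the HO-MSU libraries). NHL10, a flagellin-induced gene that was too low to test, had 0 counts in all 6 AX libraries and 18, 3, 6, 2, 6 and 9 in the HO libraries.

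Of 12 genes for catalases, ascorbate peroxidases and rapid stress responses, 9 were tested, 4 were higher (background 5.01%) and 2 were lower (background 5.16%). ZAT10, a zinc-finger repressor induced by oxidative stress, rose by 1.68 ± 0.26 (FDR = 5.11e-05). The 3 catalases, which break down hydrogen peroxide, differed in direction: CAT3 rose by 0.55 ± 0.07 (FDR = 1.28e-06) and CAT1 by 0.50 ± 0.12 (FDR = 0.00473, and 0.0612 with total counts), whereas CAT2, the most abundant at 183 RPKM, fell by 0.35 ± 0.07 (FDR = 0.00199). ERF104, an ethylene response factor, rose by 0.53 (FDR = 0.0323), a call lost without AX-Malaka 1, AX-Malaka 2, AX-MSU 2, AX-MSU 3, HO-MSU 2 or HO-MSU 3 (FDR up to 0.107) and with total counts (FDR = 0.132). TCH4, a cell wall enzyme induced by touch, fell by 0.49 ± 0.12 across both soils (FDR = 0.00640) and by 0.81 within Malaka (FDR = 0.000253), while within MSU the difference was −0.14 (FDR = 0.659; interaction FDR = 0.187). It was also lower with MSU than with Malaka among AX plants (−1.09, FDR = 1.63e-05). The median of the list was 0.50, and APX1, the cytosolic ascorbate peroxidase, differed by −0.03 (FDR = 0.872).

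**Figure D5:**
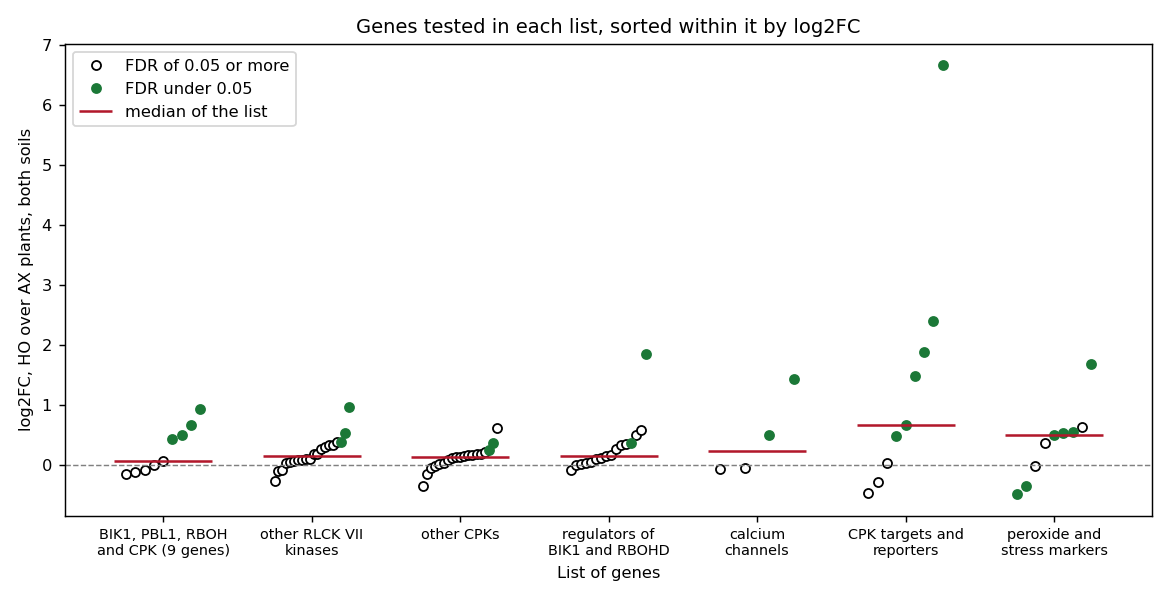
The log2FC of HO over AX plants across both soils for the genes tested in 7 lists, filled where the FDR was under 0.05, with the median of each list as a line. Medians run from 0.06 for the 9 genes to 0.67 for the list drawn as CPK targets and reporters, which also holds other early immune response genes. Its highest point is FRK1, a fitted value that depends on the prior count because its AX libraries held 3 counts.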

How the data were processed

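RNA of 12 rosette pools was sequenced as stranded single-end reads of 50 bases. Per the labels and the study's methods, the authors trimmed the reads with Trimmomatic 0.39, aligned them to TAIR10 with STAR and counted them per gene with featureCounts, and they deposited raw counts of reads per gene for 33610 genes. The strand setting, the annotation and the treatment of reads with several hits are not given in the sources used here.

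Samples were grouped by the labels. Counts were fitted with edgeR 4.0.16 (quasi-likelihood test, TMM factors, R 4.3.3) with Benjamini-Hochberg adjustment over 17588 genes. The 16022 genes below the edgeR filter (minimum count 10, minimum total 15, groups of 3) were not tested. A model of 4 groups gave the contrasts within soils, between soils and the interaction, and a model of soil plus treatment the comparison across both soils. SEs came from the unshrunken log2FC and the F statistic, and the intervals cover 95%. The fits were tested on simulated counts in which 200 genes were changed by a log2FC of 1. Across both soils 198 of them were recovered beside 12 false calls, and within Malaka 186 beside 17 false calls. Exon lengths, positions and sequences came from RefSeq (TAIR10.1). Figures were drawn with matplotlib 3.10.9 in Python 3.11.15.

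The 9 genes and all lists were chosen with earlier results of these data known. From each list the text names genes called across both soils or in either soil, at most 8 by p-value, and for families the most abundant gene not called. Other genes named with a value, the ratios, and the counts of lost calls for single list genes were chosen after values had been seen. Alternatives were RLE factors, total counts, DESeq2 1.42.0, other filters on low counts, removal of organelle and ribosomal RNA genes, no soil term, fits of 1 soil alone, a replicate block and leaving out each library.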

Additional observations from a re-analysis of the deposited data

Results flagged for a closer look

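CPK11 in AX-MSU replicate 2, at 4.28 CPM, stood apart from the other 5 AX libraries: its gap to the nearest of them took 0.666 of the range of log2 CPM, more than Dixon's test allows for 6 values. Chance alone singles out about 1 in 20 such groups. Removal of AX-MSU replicate 2 also ended the MSU calls of BIK1 (FDR = 0.0613) and CPK28 (FDR = 0.101) and the call of PBL1 across both soils (FDR = 0.0666). It was not alone in this. Removal of HO-MSU replicate 3 ended the same calls of BIK1 (FDR = 0.0522) and PBL1 (FDR = 0.0662), and that of HO-MSU replicate 1 the call of CPK28 (FDR = 0.0506).

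The increase of AT1G11960 in HO plants differed between the soils by a log2FC of 1.31 ± 0.29 in the edgeR interaction test (FDR = 0.0406), being larger with MSU (2.05) than with Malaka (0.74). All 3 HO-MSU libraries exceeded all 3 HO-Malaka libraries. The share of all genes separated in this direction is not given here, and in the opposite direction it was 7.03%. The interaction call was lost in 10 of the 12 fits that left out a library, all but those without HO-Malaka 2 or AX-MSU 3 (FDR up to 0.191), and with total counts (FDR = 0.212).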

How the results depend on the processing

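The calls of BIK1 across both soils and within Malaka and of RBOHD across both soils were kept under all alternatives, and no gene named in the text reversed while called. Total counts without correction for composition moved the median log2FC of all genes by −0.10 across both soils, −0.04 within Malaka and −0.16 within MSU. They left 2 of the 4 calls among the 9 genes across both soils, 1 of 2 within Malaka and 0 of 3 within MSU, and the split of all genes called higher and lower across both soils became 424 and 934 in place of 881 and 908. The calls over all genes fell with them from 771 to 376 within Malaka, from 49 to 14 in the interaction, from 114 to 23 between soils in AX plants and from 51 to 17 in HO plants. Without a filter on low counts the last 3 became 181, 258 and 189, and DESeq2 called 83 between soils in HO plants. With 1 library left out, 3 to 4 of the 9 genes were called across both soils, 1 to 2 within Malaka (1 without AX-Malaka replicate 2) and 1 to 3 within MSU (1 without AX-MSU replicate 2), and none in the interaction or between soils. Over all genes the same fits called 1402 to 2086 across both soils, 480 to 941 within Malaka, 644 to 1428 within MSU, 15 to 191 in the interaction, 25 to 190 between soils in AX and 16 to 223 in HO plants. The cause of these shifts was not tested.

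The replicate number as a block gave 1911 calls across both soils, 946 within Malaka, 1361 within MSU, 104 in the interaction, 192 between soils in AX and 116 in HO plants, and 4, 2 and 3 of the 9 genes. These were more calls over all genes than without the block in each comparison. Libraries with the same number had deviations from their group means with r from −0.03 to 0.186, against −0.159 to 0.0850 for other pairs. The numbers were not taken to pair the samples, and whether libraries with the same number share variation was not tested.

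The counts of BIK1 (21 to 105 a library) and PBL1 (18 to 60) limit what could be detected at these genes within a soil. Organelle and ribosomal RNA took most counts. Reads on the opposite strand cannot be separated where genes overlap, because the strand setting is not known here. Transcript levels of whole rosettes say nothing of protein amount, phosphorylation or activity.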
